A study of Homo sapiens with 15 samples.

Results

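CD44 and 9 genes that make, bind or cut hyaluronan were followed from human induced pluripotent stem cells (hiPSCs) through retinal organoids to passaged Müller glia-like cultures. The 10 genes, CD44, HAS1, HAS2, HAS3, HYAL1, HYAL2, CEMIP, VCAN, HAPLN1 and TNFAIP6, were picked by symbol from the 19684 genes of the deposited tables, and each symbol matched 1 gene. They were picked with their levels in these libraries in view, so their levels and fold changes are given as a description without a p-value. Other genes of the pathway were tested, but their lists were drawn up with earlier results of these data known, so their p-values are not free of that choice.

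All libraries derive from BC1-GFP, 1 line of human hiPSCs that carries a GFP reporter and is wild type by its labels. There were 5 groups of 3 libraries: undifferentiated hiPSCs, the neural retina (NR) of retinal organoids (ROs) taken on day 70 (D70-ROs), the same on day 150 (D150-ROs), and iMGCs (induced Müller glial cells), which are cells expanded from the NR layers of D150-ROs, at passage 1 (P1) and passage 5 (P5). No group carried a further allele or drug treatment. By the methods the iMGCs alone grew in MGC medium, on coated plates, and the hiPSCs were also kept on coated plates. Serum was part of both the MGC medium and the retinal culture medium of the ROs. A supplement of the RO medium was exchanged between day 70 and day 150, so D70-ROs and D150-ROs differed in medium as well. In the methods 5 ROs were pooled per experiment. The methods and the sample labels give 3 independent experiments per group, whereas the series text counts 2 for the hiPSC and RO stages, so in those groups the spread between libraries may be partly technical.

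Library totals ran from 11349600 expected counts in D70-RO replicate 2 to 20398755, with a median of 17194154. The labels were checked against their defining markers. The pluripotency markers summed to 2949 to 3115 FPKM in hiPSCs and to at most 8.21 FPKM elsewhere. Photoreceptor and retinal neuron markers summed to 705.3 to 740.6 FPKM in D150-ROs and to at most 0.5 FPKM in iMGCs. In iMGCs the Müller markers were not all present. RLBP1, the gene of CRALBP, was at 0 in 5 of 6 libraries and at 0.09 FPKM in the other. In D150-ROs it was at 29.64 to 36.91 FPKM. GLUL, the gene of glutamine synthetase, was at 12.25 to 15.22 FPKM against 97.64 to 102.3 FPKM in D150-ROs. SLC1A3 was at 0.36 to 1.23 FPKM against 27.55 to 28.71 FPKM, and SOX9 at 3.47 to 5.48 FPKM against 38.94 to 46.54 FPKM. VIM alone of the 5 was higher in iMGCs, at 2141 to 2901 FPKM against 984.6 to 1136 FPKM. All 6 fibroblast and mesenchyme markers were above a mean of 1 FPKM in iMGCs and summed to 2293 to 2396 FPKM at P1 and 2577 to 2837 FPKM at P5, against 23.36 to 28.39 FPKM in D150-ROs. COL1A1 made up most of that sum, at 1946 to 2352 FPKM. The Müller, neuron and mesenchyme markers thus differed between D150-ROs and P1 iMGCs beside the differences given below, and their part in those was not tested. From P1 to P5 the mesenchyme sum was higher, with COL1A1, COL1A2 and LUM higher without overlap. COL3A1 was lower, at 9.78 to 10.58 FPKM against 24.39 to 29.17 FPKM, and PDGFRB and THY1 overlapped. The photoreceptor and neuron markers stayed at 0.5 FPKM or less. The 5 microglia and macrophage markers summed to at most 0.94 FPKM in iMGCs.

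Hyaluronan is a long, unsulphated sugar chain that is made at the cell surface by 3 synthases, HAS1, HAS2 and HAS3, from UDP-sugars supplied by the cytoplasm. Outside the cell it is organized by proteins that bind it, such as versican (VCAN), link protein (HAPLN1) and TSG-6 (TNFAIP6), is held at the membrane by the receptor CD44, and is cut by hyaluronidases such as HYAL1 and HYAL2 and by CEMIP. In the eye, hyaluronan fills the vitreous and the matrix around photoreceptors, and CD44 is known from the apical processes of Müller glia. In bulk RNA a lower level can come from fewer cells of a type or from less RNA per cell, and these cannot be told apart here.

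The promoters of 2 of the genes are shown because they mark the ends of the iMGC pattern: CEMIP had a large gain in iMGCs, and TNFAIP6 was near 0 throughout. The bases are those just upstream of the gene start in GENCODE 29, read from RefSeq (GRCh38.p14, plus strand), with matches to the GC box GGGCGG and the AP-1 motif TGANTCA, on either strand, in capitals. The TATA motif TATAAA was searched as well, and none of these motifs overlap in the windows shown. The CEMIP window is chr15:80779120-80779342, and the TNFAIP6 window is chr2:151357342-151357591.
CEMIP: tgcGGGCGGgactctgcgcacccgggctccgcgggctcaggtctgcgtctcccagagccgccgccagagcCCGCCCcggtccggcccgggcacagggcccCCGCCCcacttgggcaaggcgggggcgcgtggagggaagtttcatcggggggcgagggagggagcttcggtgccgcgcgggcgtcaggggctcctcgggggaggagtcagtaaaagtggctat
TNFAIP6: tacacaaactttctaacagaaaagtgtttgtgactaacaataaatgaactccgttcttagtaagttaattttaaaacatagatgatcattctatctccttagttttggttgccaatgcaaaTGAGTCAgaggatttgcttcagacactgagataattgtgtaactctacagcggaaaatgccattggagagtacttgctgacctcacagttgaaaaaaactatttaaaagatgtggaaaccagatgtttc
The CEMIP window held 3 GC box matches and 25 CpG dinucleotides in 223 bases, with a GC content of 74.9%. The TNFAIP6 window held 1 AP-1 match, no GC box and 2 CpG dinucleotides in 250 bases, with a GC content of 34.4%. Over the 250 bases before the RefSeq start of 15271 genes, 56.7% of promoters held the GC box, 5.02% the AP-1 motif and 9.21% the TATA motif, and the median GC content was 62.4%. By the same window, GC content was lower in 85.3% of promoters than in that of CEMIP and in 2.36% than in that of TNFAIP6. The 250 bases of CEMIP run past its GENCODE gene start and held 1 TATA match as well. Among the other members, CD44, HYAL1, HAS1, HAS3 and VCAN had a GC box in that window, and HYAL2 and HAPLN1 had none of the motifs. The promoter of HAS2 was not analysed here. A match describes the letters and is not evidence of a bound factor.

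The plot of FPKM by library shows all 10 genes. CD44, HYAL2 and VCAN were at 1 FPKM or more in all 15 libraries. HAS2 reached that level in 12 libraries, HAPLN1 in 7, and HAS3, HYAL1 and CEMIP in 6 each. HAS1 and TNFAIP6 reached it in none.

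**Figure D1:**
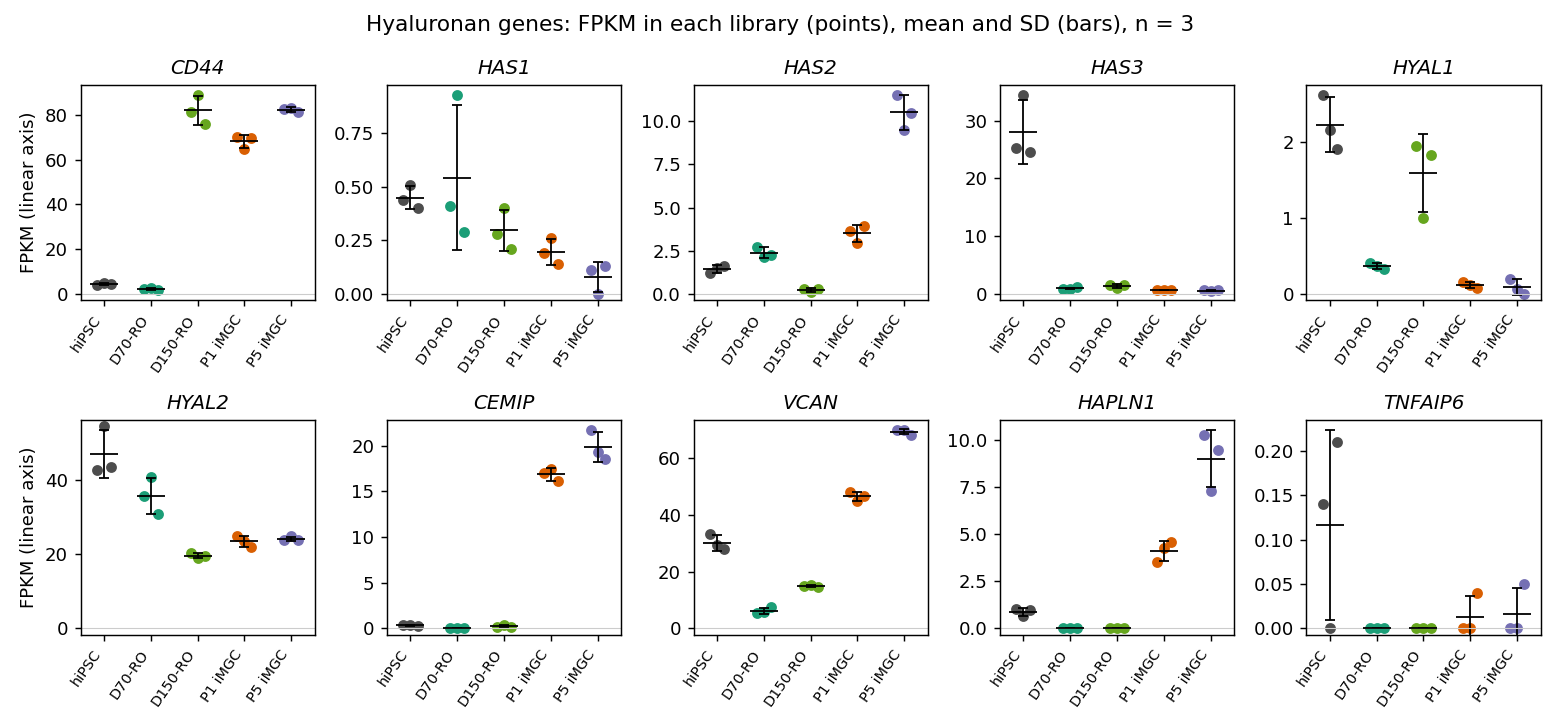
FPKM of the 10 genes on linear axes, with 3 libraries (points) per group, the mean (long bar) and the SD (capped bar). CD44 was high in D150-ROs and both iMGC groups, whereas CEMIP, HAPLN1 and HAS2 were highest in the 6 iMGC libraries and HAS3 in the 3 hiPSC libraries.

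CD44 (ENSG00000026508; chr11:35138870-35232402, plus strand, protein-coding; GENCODE 29, GRCh38) encodes the main membrane receptor for hyaluronan. In hiPSCs it was at 3.77, 4.64 and 4.29 FPKM, and in D70-ROs at 1.97, 2.65 and 1.58 FPKM. In D150-ROs it was at 81.17, 89.1 and 76.14 FPKM, in P1 iMGCs at 70.12, 64.91 and 69.69 FPKM, and in P5 iMGCs at 82.53, 83.34 and 81.47 FPKM. Every D150-RO and iMGC library was thus far above every hiPSC and D70-RO library. By mean FPKM, CD44 lay above 42.9% of the genes in D70-ROs and above 96.5% in D150-ROs. Ordered by mean FPKM, D70-ROs were lowest, followed by hiPSCs, P1 iMGCs, D150-ROs and P5 iMGCs, and only the ranges of the last 2 overlapped. The fitted log2 fold change was −1.11 ± 0.26 (SE, n = 3 per group) from hiPSCs to D70-ROs and 5.45 ± 0.22 from D70-ROs to D150-ROs, a 43.6-fold difference. Between P1 and P5 it was 0.29 ± 0.04. The first of these was under 2-fold without D70-RO replicate 1 (−0.92) or replicate 3 (−0.95), and it was −1.47 without replicate 2.

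From D150-ROs to P1 iMGCs the sign of the CD44 difference depended on the scale. On counts with TMM scaling the log2 fold change was 0.76 ± 0.05, with 13240 expected counts over the 3 P1 libraries and 11733 over the 3 D150-RO libraries. On log2(FPKM + 1) it was −0.26, since the FPKM values of all 3 P1 libraries were below those of all 3 D150-RO libraries. The median over all genes tested was −0.05 on the first scale and −0.59 on the second, so relative to that median CD44 was higher by 0.81 and 0.33. For the same comparison, 45.4% of all called genes were higher in P1 iMGCs on TMM counts and 22.9% on FPKM. The ROs and the iMGCs stand in separate tables, but HAS2, whose only coding transcript in GENCODE 29 has 4190 bases, had a ratio of CPM (the counts scaled to the library total) to FPKM between 4.18 and 4.24 in all 14 libraries with at least 10 counts, which is the transcript length in kilobases.

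That ratio gives, for every gene, the transcript length that the quantification used, and it was examined after the values had been seen. For CD44 it was 2.11 to 2.47 kb in hiPSCs and 1.93 to 2.69 kb in D70-ROs. It was 2.84 to 3.16 kb in D150-ROs. In P1 iMGCs it was 3.78 to 3.97 kb, and in P5 iMGCs 3.72 to 3.77 kb. The iMGC and D150-RO libraries did not overlap, and the ratio of the P1 mean to the D150-RO mean was 1.31 (0.39 on the log2 scale). Of 9077 genes with at least 100 counts in each D150-RO and P1 library, 3.71% had a length ratio at least as far from 1, and the median ratio over those genes was 1.000. The 26 coding transcripts of CD44 in GENCODE 29 run from 352 to 5732 bases. RSEM weights the length by the transcripts it assigns reads to, and the values of single transcripts were not analysed here. ESRP1 and ESRP2, splicing factors known to favour the variable exons of CD44, were at 52.98 to 60.2 FPKM and 17.06 to 19.72 FPKM in hiPSCs and at no more than 0.22 FPKM in each later library. Their part in the implied length of CD44 was not tested.

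For 2 further genes the implied transcripts were longer in iMGCs than in hiPSCs, where their counts were low. CEMIP was at 2.55 to 3.19 kb in hiPSCs, with 60 counts over the group, and at 6.72 to 7.14 kb in the 6 iMGC libraries. In D150-ROs, with 15 to 21 counts per library, CEMIP was at 7.15, 2.35 and 5.71 kb, so 1 of these libraries was above all iMGC libraries and the groups overlapped. HAPLN1 was at 1.22 to 1.61 kb in hiPSCs, with 77 counts, and at 3.28 to 5.12 kb in iMGCs. The lengths of HYAL2, 1.86 to 2.1 kb, and of HAS2 differed little, and VCAN had 8.61 to 10.9 kb.

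**Figure D2:**
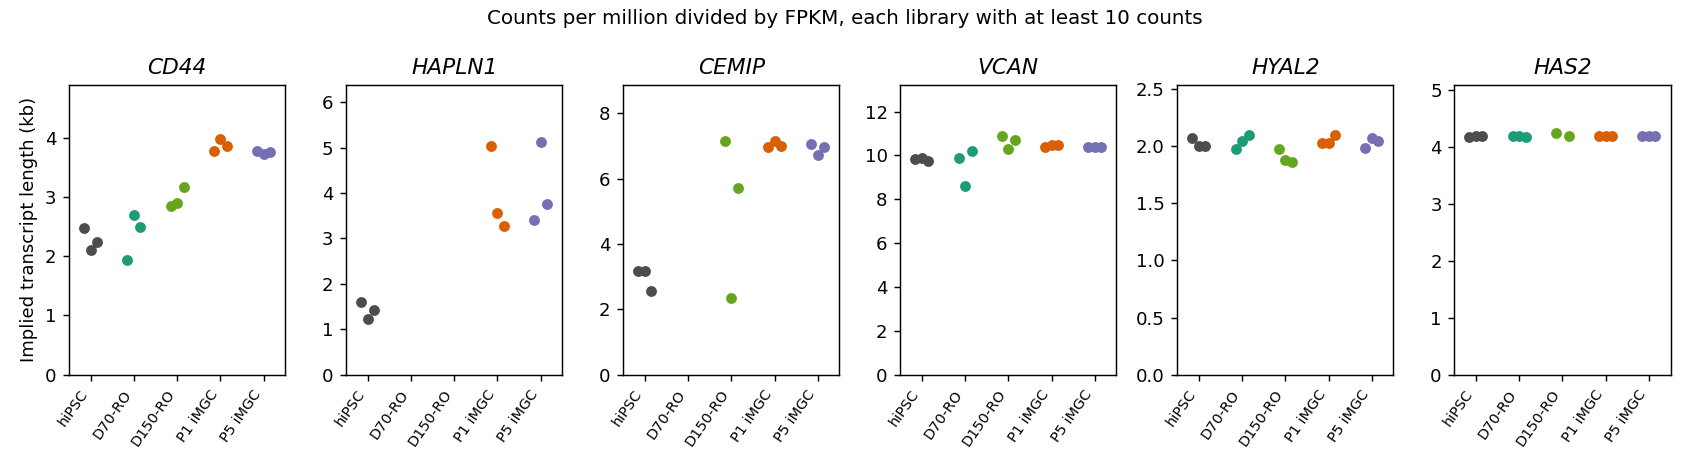
Transcript length implied by CPM divided by FPKM, in kb on axes from 0, for 6 genes, with 1 point for each library of at least 10 counts. CD44 was at 3.72 to 3.97 kb in the 6 iMGC libraries and at 1.93 to 3.16 kb in the other 9, whereas HAS2 stayed at 4.18 to 4.24 kb.

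The synthases exchanged places between stages. HAS3 (ENSG00000103044; chr16:69105564-69118719, plus strand) was at 25.24, 34.53 and 24.6 FPKM in hiPSCs. In D70-ROs it was at 0.91, 0.78 and 1.09 FPKM, in D150-ROs at 1.52, 0.97 and 1.5 FPKM, and in the 6 iMGC libraries at 0.39 to 0.69 FPKM. The hiPSC libraries stood apart from all others, and the log2 fold change from hiPSCs to D70-ROs was −5.01 ± 0.21 (SE, n = 3 per group), a 32.2-fold difference. D70-ROs and D150-ROs overlapped (0.46 ± 0.23), as did P1 and P5 iMGCs.

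HAS2 (ENSG00000170961; chr8:121612116-121641390, minus strand) encodes the synthase known as the main source of hyaluronan in mesenchymal tissue. It was at 1.2, 1.5 and 1.6 FPKM in hiPSCs, at 2.73, 2.12 and 2.25 FPKM one stage later in D70-ROs, and at 0.29, 0.1 and 0.29 FPKM in D150-ROs. The iMGCs had more, with P1 at 3.66, 2.96 and 3.92 FPKM and P5 at 11.54, 9.51 and 10.51 FPKM. None of the 5 groups overlapped, with D150-ROs lowest and P5 iMGCs highest. From D70-ROs to D150-ROs the log2 fold change was −3.59 ± 0.31, and from D150-ROs to P1 iMGCs it was 4.58 ± 0.23. The latter was 1.88 on log2(FPKM + 1), where the low D150-RO values are damped. Between P1 and P5 it was 1.64 ± 0.09, a 3.12-fold difference.

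HAS1 (ENSG00000105509; chr19:51713112-51723994, minus strand) was at 0 to 0.93 FPKM in every library, with 152 expected counts over all 15. Its 55, 50, 25, 16 and 6 counts in hiPSCs, D70-ROs, D150-ROs, P1 and P5 iMGCs left it below the level at which genes were compared. Only the ranges of P1 (0.14 to 0.26 FPKM) and P5 (0 to 0.13 FPKM) did not overlap among neighbours in the order of its means.

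Summed over the 3 synthases, hiPSCs had 30.01 ± 5.66 FPKM (SD, n = 3), of which HAS3 was 93.6% ± 1. The sum was 3.84 ± 0.21 FPKM in D70-ROs, with 61.6% ± 6 from HAS2, and 1.85 ± 0.34 FPKM in D150-ROs, with 71.2% ± 4.7 from HAS3. In P1 iMGCs it was 4.33 ± 0.46 FPKM and in P5 iMGCs 11.2 ± 1.2 FPKM, with 80.9% ± 3 and 94.4% ± 1.7 from HAS2. The leading synthase thus differed between hiPSCs and iMGCs, and the P5 sum was below that of hiPSCs in every library.

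**Figure D3:**
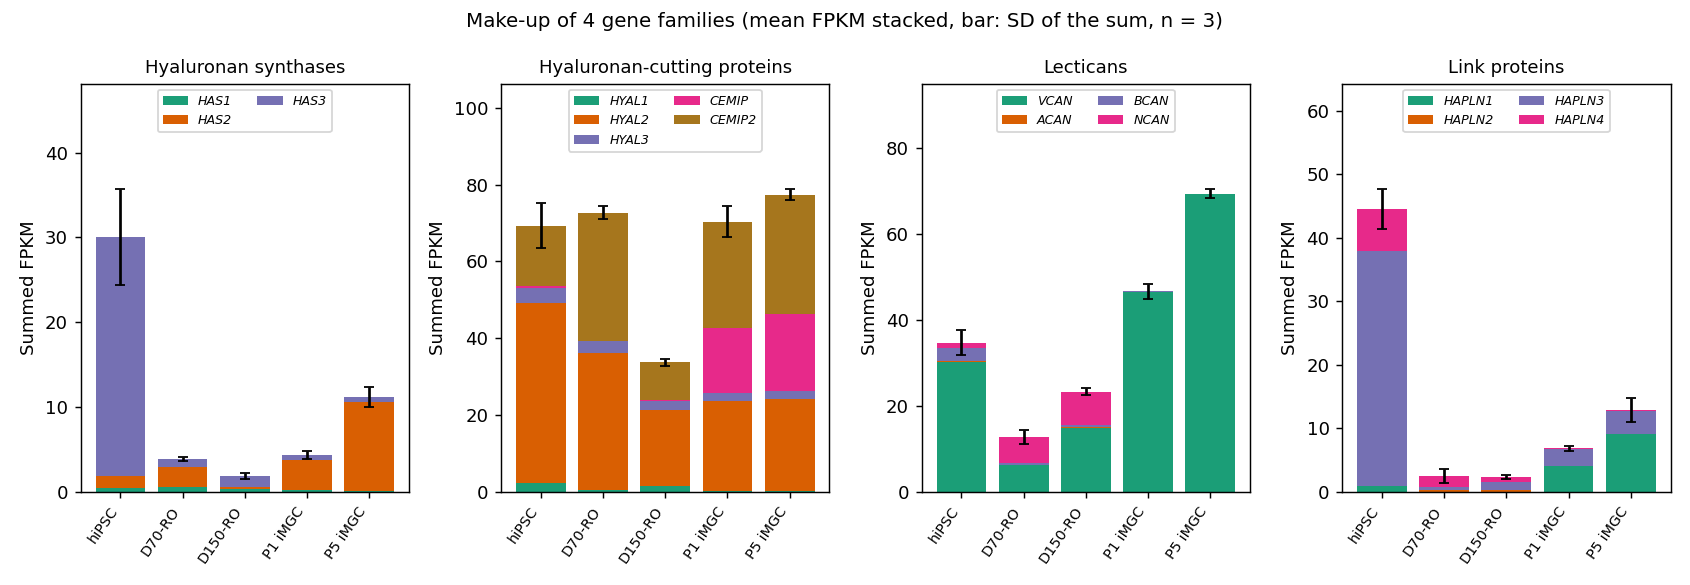
Summed mean FPKM of 4 gene families in the 5 groups, stacked by gene, with the SD of the sum over 3 libraries as the bar. HAS3 made up 93.6% of the synthases in hiPSCs and HAS2 94.4% in P5 iMGCs, and VCAN made up 99.8% and 99.9% of the lecticans in P1 and P5 iMGCs.

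VCAN (ENSG00000038427; chr5:83471465-83582303, plus strand) encodes versican, a large proteoglycan of the lectican family that binds hyaluronan at one end. It was at 33.4, 29.26 and 27.85 FPKM in hiPSCs, at 5.47, 5.69 and 7.55 FPKM in D70-ROs and at 14.93, 15.32 and 14.53 FPKM in D150-ROs. Levels were higher in P1 iMGCs, at 48.1, 44.87 and 46.57 FPKM, and in P5 iMGCs at 69.8, 69.86 and 68.15 FPKM. No 2 groups overlapped. The log2 fold changes along the series were −2.44 ± 0.16, 1.18 ± 0.15, 2.26 ± 0.04 and 0.63 ± 0.04 (SE, n = 3 per group), and the third was 1.58 on FPKM.

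HAPLN1 (ENSG00000145681; chr5:83637805-83721613, minus strand) encodes the link protein that locks lecticans onto hyaluronan, and it is the nearest neighbour of VCAN in the tables, 55501 bases away. It was at 1.05, 0.65 and 0.96 FPKM in hiPSCs and had no count in any of the 6 RO libraries. In P1 iMGCs it was at 3.52, 4.26 and 4.57 FPKM, and in P5 iMGCs at 10.27, 7.31 and 9.51 FPKM. Against an upper limit of 3 counts over a group without counts, D70-ROs were at least 21.2-fold lower than hiPSCs, and P1 iMGCs, with 799 counts, were at least 256-fold higher than D150-ROs. Between P1 and P5 the log2 fold change was 1.24 ± 0.08 (0.96 on FPKM). The limit covers counting error only.

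TNFAIP6 (ENSG00000123610; chr2:151357592-151380048, plus strand) encodes TSG-6, which moves heavy chains onto hyaluronan and is known as an inflammation-induced gene. It had 12 expected counts over all 15 libraries, of which 10 were in hiPSC replicates 1 and 3. One P1 library and one P5 library had 1 count each, and no D70-RO or D150-RO library had any. Differences in TNFAIP6 were not detectable at this depth.

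Among the 4 lecticans, VCAN held 86.9% ± 0.9 of the summed FPKM in hiPSCs. It held 49% ± 3.4 in the younger ROs (D70) and 64% ± 2.2 in the older (D150). Neurocan (NCAN) held most of the rest in ROs, at 47.3% ± 4.3 and 33.1% ± 2. In iMGCs VCAN held 99.8% and 99.9%, and NCAN had no count in P1 iMGCs and 2 counts in P5 iMGCs. Among the 4 link proteins, HAPLN3 led in hiPSCs with 83.2% ± 1.8 and HAPLN4 in D70-ROs with 72.4% ± 10. HAPLN1 led in iMGCs, with 60.4% ± 7.9 at P1 and 70.4% ± 2.5 at P5.

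CEMIP (ENSG00000103888; chr15:80779343-80951776, plus strand) encodes a secreted protein needed by fibroblasts to cut hyaluronan. It was at 0.33, 0.43 and 0.25 FPKM in hiPSCs, at 0.01, 0.05 and 0.02 FPKM in D70-ROs and at 0.19, 0.39 and 0.17 FPKM in D150-ROs. In P1 iMGCs it was at 16.98, 17.48 and 16.09 FPKM, and in P5 iMGCs at 21.76, 19.32 and 18.53 FPKM. Every iMGC library was far above every other library, while hiPSCs and D150-ROs overlapped. From D150-ROs to P1 iMGCs the log2 fold change was 7.41 ± 0.10 (SE, n = 3 per group), a 170.5-fold difference from 52 to 5946 expected counts, and it was 3.84 on log2(FPKM + 1). The P5 to P1 value was 0.27 ± 0.05.

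HYAL2 (ENSG00000068001; chr3:50317790-50322906, minus strand) encodes a membrane-anchored hyaluronidase. It was at 42.9, 54.56 and 43.71 FPKM in hiPSCs, at 35.72, 40.76 and 30.87 FPKM in D70-ROs, and at 20.37, 18.98 and 19.44 FPKM in D150-ROs. P1 iMGCs had 24.86, 23.62 and 21.98 FPKM, and P5 iMGCs had 23.91, 24.84 and 23.84 FPKM. The levels stepped down from hiPSCs to D150-ROs without overlap, and P1 and P5 iMGCs overlapped. The log2 fold changes were −0.52 ± 0.15, −1.19 ± 0.13, 1.01 ± 0.07 and 0.09 ± 0.06. The second was −0.83 on log2(FPKM + 1), which is under 2-fold. The third sat at the 2-fold limit: it was 0.97 without D150-RO replicate 2, 0.98 without D150-RO replicate 3, 0.99 without P1 iMGC replicate 1, and 0.25 on FPKM.

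HYAL1 (ENSG00000114378; chr3:50299889-50312381, minus strand), a lysosomal hyaluronidase whose gene lies 5408 bases from HYAL2, was at 2.62, 2.16 and 1.91 FPKM in hiPSCs and at 0.4, 0.36 and 0.32 FPKM in D70-ROs. In D150-ROs it was at 1.95, 1 and 1.83 FPKM, and in the 6 iMGC libraries at 0 to 0.2 FPKM. It was therefore low in D70-ROs and lowest in iMGCs, where 12 and 6 counts were read over the P1 and P5 groups. The log2 fold changes were −2.76 ± 0.31, 1.90 ± 0.36 and −3.04 ± 0.42 for the first 3 comparisons, and −1.24, 0.91 and −1.20 on log2(FPKM + 1).

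Summed over HYAL1, HYAL2, HYAL3, CEMIP and CEMIP2, the cutting proteins were at 69.3 ± 5.8 FPKM in hiPSCs, 72.7 ± 1.7 in D70-ROs, 33.7 ± 1 in D150-ROs, 70.4 ± 4.1 in P1 iMGCs and 77.4 ± 1.3 in P5 iMGCs. CEMIP was under 1.2% of that sum in every hiPSC and RO library. It was 24% ± 0.87 at P1 and 25.6% ± 1.7 at P5. HYAL2 went from 67.7% ± 3.8 in hiPSCs to 31.3% ± 1.1 in P5 iMGCs.

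A gene was compared where 3 or more of the 6 libraries reached 1 FPKM, and the limits for a call were 2-fold and 0.05 for the p adjusted by Benjamini and Hochberg. From hiPSCs to D70-ROs, 6 of the 10 genes were compared, and 4 were past these limits, all lower (CD44, HAS3, HYAL1 and VCAN), beside 43.5% of all 12954 genes compared (22.5% higher and 21.1% lower). From D70-ROs to D150-ROs, 5 of 6 were past them: CD44, HYAL1 and VCAN higher, HAS2 and HYAL2 lower, beside 33.3% of all genes (16.6% higher and 16.7% lower). From D150-ROs to P1 iMGCs, 6 of 7 were past them: HAS2, HYAL2, VCAN, HAPLN1 and CEMIP higher and HYAL1 lower, beside 44.1% of all genes (20.0% higher and 24.1% lower). From P1 to P5 iMGCs, HAS2 and HAPLN1 of 6 were past them, both higher, beside 2.92% of all genes (1.94% higher and 0.977% lower). Counted over all 10 genes, the FPKM ranges of the groups did not overlap for 8, 6, 8 and 6 genes along the stages, beside 59.0%, 57.2%, 66.9% and 26.8% of all 19684 genes. HYAL1 entered the first comparison through hiPSCs alone. In the second, HAS2 entered through D70-ROs alone and HYAL1 through D150-ROs alone. HAPLN1, CEMIP, HAS2 and HYAL1 entered the third comparison through only 1 of its groups. Genes that entered in this way had to differ, and the 10 genes were chosen with these values known, so nothing is read from the counts. Consecutive comparisons also share a group.

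**Figure D4:**
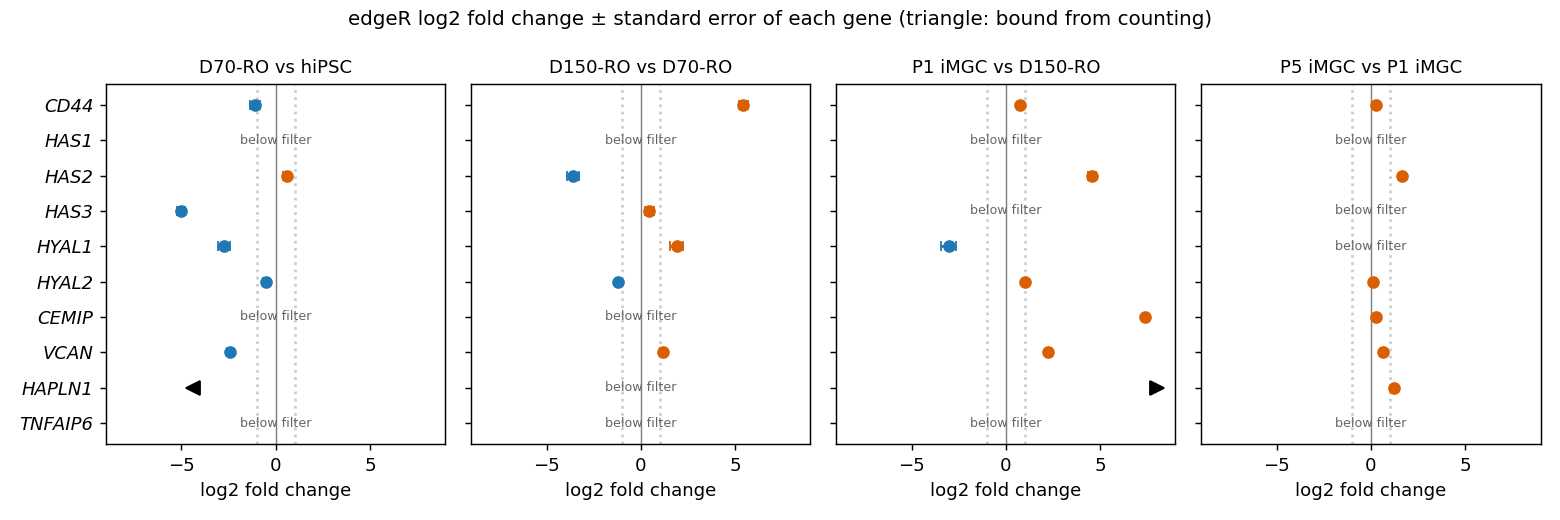
edgeR log2 fold change of each gene (first group over second) with its SE, for 4 comparisons of 3 against 3 libraries. Triangles are bounds from counting where one group had no count, dotted lines mark 2-fold, and genes marked below filter were not compared. CD44 was at 5.45 from D70-ROs to D150-ROs, and CEMIP was at 7.41 from D150-ROs to P1 iMGCs.

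The rest of the pathway was read from 60 genes in 7 lists, none of them among the 10. From hiPSCs to D70-ROs 41 were tested, and 6 rose and 20 fell. From D70-ROs to D150-ROs 9 rose and 6 fell of 36, and from P1 to P5 2 of 35 were called, both lower. From D150-ROs to P1 iMGCs 26 rose and 5 fell of 39, and on log2(FPKM + 1) 14 were called higher and 6 lower. On that scale 1329 of all 12896 genes were called higher and 4478 lower. The shares of all genes called in the 4 comparisons were 43.5%, 33.3%, 44.1% and 2.92%, as given above. Of the 39 genes, 9 passed the filter on low values through only 1 of the groups and so had to differ (TLR4, PTX3, SRGN, ADAMTS5, NCAN, IMPG1, IMPG2, TNR and ADAMTS15), and all 9 were called, 4 higher and 5 lower. The same held for 10 of the genes tested from hiPSCs to D70-ROs, among them ESRP1 and ESRP2, and for 5 from D70-ROs to D150-ROs, among them IMPG1, TNC and ADAMTS15. The p-values of such genes are conditioned on the filter. The median log2 fold change of the tested genes was −0.93, −0.02, 1.47 and 0.08 in the order hiPSC to D70-RO, D70-RO to D150-RO, D150-RO to P1 and P1 to P5. Over all genes tested it was 0.02, −0.01, −0.05 and 0.00.

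**Figure D5:**
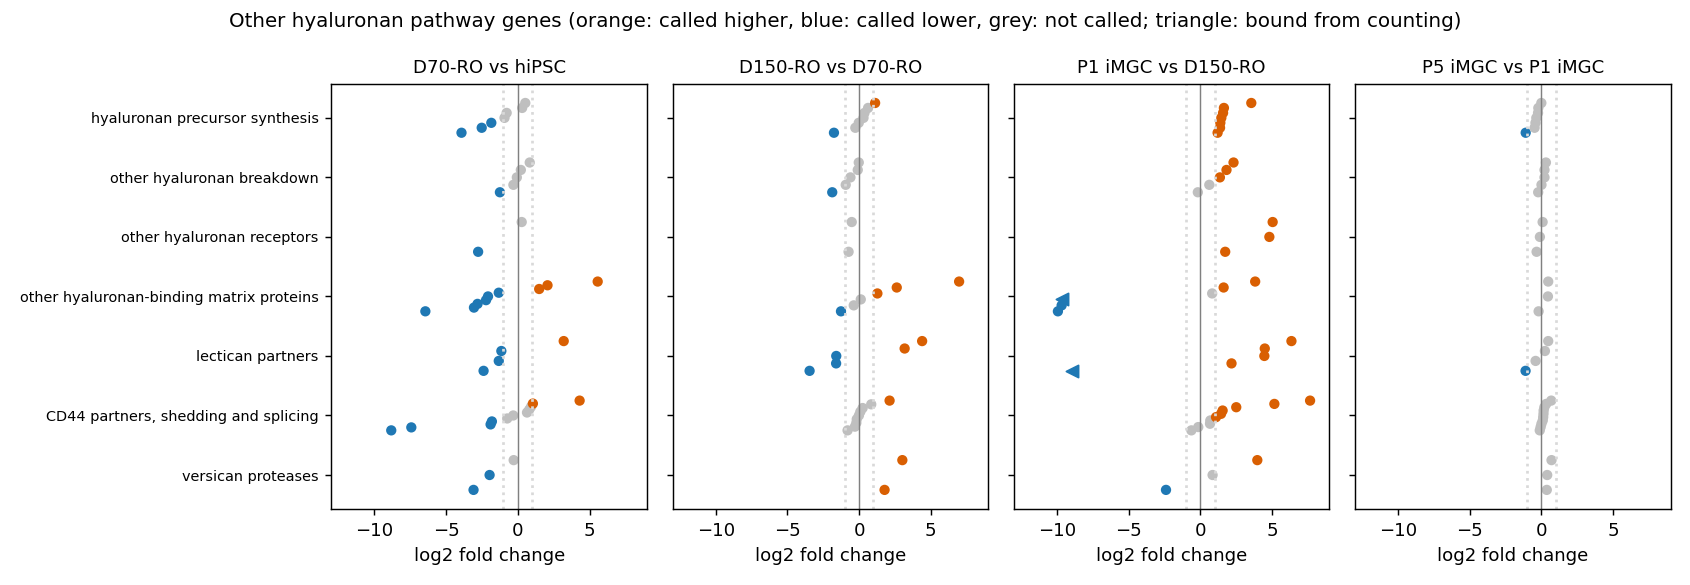
edgeR log2 fold change of the tested genes of 7 pathway lists in 4 comparisons of 3 against 3 libraries; triangles are bounds from counting for genes with no count in P1 iMGCs, and dotted lines mark 2-fold. From D150-ROs to P1 iMGCs 26 of 39 genes were called higher and 5 lower, and from P1 to P5 2 of 35 were called lower.

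Enzymes that make the UDP-sugars for hyaluronan rose from D150-ROs to P1 iMGCs in 7 of 7 cases on TMM counts, and 1 of 7 was called on log2(FPKM + 1). Of all 12896 genes compared, 20.0% were called higher on TMM counts and 1329 genes on log2(FPKM + 1). GFPT2, which catalyses the first step of the hexosamine pathway, was at 1.66 to 2.06 FPKM in D150-ROs and at 10.8 to 11.71 FPKM in P1 iMGCs (log2 fold change 3.56 ± 0.11, edgeR adjusted p = 3.28e-14), and it is the gene called on both scales. UGDH, which makes UDP-glucuronic acid, was at 19.16 to 23.48 FPKM and 34.49 to 38.62 FPKM (1.47 ± 0.06, edgeR adjusted p = 2.74e-12), with 0.72 on FPKM. The other 5, UGP2, UAP1, GFPT1, GNPNAT1 and PGM3, had log2 fold changes between 1.21 and 1.65. From P1 to P5 GFPT2 fell by 1.10 ± 0.10 on the log2 scale (edgeR adjusted p = 2.24e-09), and by 0.96 without P5 iMGC replicate 2, which is short of 2-fold. From hiPSCs to D70-ROs 3 of the 7 were called, all lower: UGP2, GFPT2 and GNPNAT1. Over all genes 43.5% were called, 21.1% as lower, so nothing is read from that count.

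Of a list of 7 further hyaluronan receptors, 3 were tested between D150-ROs and P1 iMGCs. All 3 were called higher, beside 20.0% of all genes, TLR4 having passed the filter through P1 iMGCs alone. LAYN, which encodes layilin, was at 1.12 to 1.86 FPKM in D150-ROs and at 32.66 to 34.31 FPKM in P1 iMGCs (5.05 ± 0.10, edgeR adjusted p = 3.7e-16). TLR4, a receptor of innate immunity reported to sense hyaluronan fragments, was at 0.25 to 0.45 FPKM and 4.91 to 5.38 FPKM (4.82 ± 0.15, edgeR adjusted p = 8.04e-14). HMMR, which is also a mitotic spindle gene, had a smaller difference (1.74 ± 0.17, edgeR adjusted p = 8.22e-08) that was 0.69 on FPKM. The 3 proliferation markers summed to 21.97 to 32.11 FPKM in D150-ROs and 28.28 to 34.63 FPKM in P1 iMGCs, but went both ways. CCNB1 was higher in P1 iMGCs, at 15.84 to 19.21 FPKM against 7.61 to 11.11 FPKM. MKI67 and TOP2A had lower means there (4.17 against 5.53 FPKM and 9.77 against 13.3 FPKM), with overlapping ranges.

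In the breakdown list 3 of 5 tested genes rose from D150-ROs to P1 iMGCs, CEMIP2 among them, beside 20.0% of all genes. CEMIP2, the membrane-bound relative of CEMIP, was at 9.06 to 10.52 FPKM and 25.89 to 29.42 FPKM (2.32 ± 0.06, edgeR adjusted p = 2.3e-15), after a fall from D70-ROs to D150-ROs (−1.87 ± 0.13, edgeR adjusted p = 4.01e-06). HYAL3 was under the 2-fold limit (0.63 ± 0.20, edgeR adjusted p = 0.00926), and its direction turned on FPKM, at −0.15.

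The matrix proteins that bind hyaluronan went both ways. IMPG1 and IMPG2, proteoglycans of the matrix between photoreceptors, rose to 62.68 to 65.97 FPKM and 199.6 to 224.8 FPKM in D150-ROs, by 6.98 ± 0.19 and 2.63 ± 0.17 on the log2 scale from D70-ROs (edgeR adjusted p = 4.89e-08 and 2.51e-06). In P1 iMGCs both were at 0.15 FPKM or less, with log2 fold changes of −9.67 ± 0.12 and −9.93 ± 0.09 (edgeR adjusted p = 2.12e-18 and 1.74e-19). NCAN, with 2302 counts in D150-ROs and 0 in P1 iMGCs, was at least 797-fold lower. PTX3, which encodes a pentraxin that cross-links hyaluronan with TSG-6, rose from 0.5 to 0.69 FPKM in D150-ROs to 4.99 to 5.78 FPKM in P1 iMGCs (3.83 ± 0.18, edgeR adjusted p = 1.49e-11). The photoreceptor markers fell beside IMPG1 and IMPG2, as given above, and their part in this difference was not tested.

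Lectican partners changed in the same comparison in all 5 cases tested, beside 44.1% of all genes called. FBN1, the gene of fibrillin-1, was at 3.92 to 4.35 FPKM in D150-ROs and at 206.5 to 207.1 FPKM in P1 iMGCs (6.36 ± 0.06, edgeR adjusted p = 1.77e-19). TNC, the gene of tenascin-C, went from 0.89 to 0.99 FPKM in D70-ROs to 21.55 to 26.57 FPKM in D150-ROs and 309 to 341.2 FPKM in P1 iMGCs, rising by 4.40 ± 0.13 and 4.47 ± 0.07 on the log2 scale (edgeR adjusted p = 6.19e-08 and 1.79e-17). FBLN1 and FBLN2 rose as well. TNR, the tenascin of neural tissue, had 1432 counts in D150-ROs and none in iMGCs, and was at least 496-fold lower at P1. Between P1 and P5 TNC was the only one of the 4 tested partners called, and it fell by 1.11 ± 0.04 (edgeR adjusted p = 1.08e-16) while VCAN was higher in every P5 library than in every P1 library.

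Of the genes that bind, shed or splice CD44, 6 of 10 were called from D150-ROs to P1 iMGCs, all higher. Over all genes, 20.0% were called higher. SRGN, the gene of the CD44 ligand serglycin, had 11 counts in D150-ROs and 1538 in P1 iMGCs (7.66 ± 0.22, edgeR adjusted p = 1.97e-14). MMP14, a membrane protease able to shed CD44, was at 10.9 to 12.11 FPKM and 258.1 to 264.6 FPKM (5.17 ± 0.06, edgeR adjusted p = 6.59e-19). MSN, the gene of moesin, which ties CD44 to actin, was at 56.01 to 61.33 FPKM and 212.6 to 215.6 FPKM (2.51 ± 0.05, edgeR adjusted p = 2.28e-16). On log2(FPKM + 1), 3 of the 10 were called higher and 1 lower, beside 1329 higher and 4478 lower of all 12896 genes. The ligand gene SPP1 rose earlier, by 4.31 ± 0.20 from hiPSCs to D70-ROs and 2.13 ± 0.11 from D70-ROs to D150-ROs (edgeR adjusted p = 1.01e-08 and 7.54e-07). From D150-ROs to P1 iMGCs SPP1 was lower, from 386.9 to 435.9 FPKM to 160.3 to 176.2 FPKM. On TMM counts that difference was −0.62 ± 0.05 (edgeR adjusted p = 2.43e-08), under the 2-fold limit. ESRP1 and ESRP2, described above, fell by 8.83 ± 0.18 and 7.43 ± 0.22 from hiPSCs to D70-ROs (edgeR adjusted p = 1.44e-10 and 6.15e-10).

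The versican proteases had 3 tested genes from D150-ROs to P1 iMGCs. ADAMTS5 rose (3.98 ± 0.17, edgeR adjusted p = 4.5e-12), from 0.19 to 0.27 FPKM to 1.85 to 2.66 FPKM. ADAMTS15 fell by 2.39 ± 0.12 (edgeR adjusted p = 1.54e-11), after it had risen by 3.02 ± 0.22 from D70-ROs to D150-ROs (edgeR adjusted p = 4.68e-06). ADAMTS1 was at 0.86 ± 0.06, under the 2-fold limit.

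Patterns over the 15 libraries were compared by Pearson's r of log2(FPKM + 1) with 13915 genes. These points fall into 5 groups and share library depth, so r describes likeness and carries no p. Most like CD44 were ACVR1 (0.991), NFIX (0.985), JCAD (0.985), SERTAD4 (0.981) and NFIC (0.981). NFIX was at 0.1 to 0.57 FPKM in hiPSCs and D70-ROs and at 21.57 to 30.55 FPKM in the other 9 libraries. By Spearman's rho none of these 5 was among the 5 nearest genes, so that list depends on the measure of likeness. Most like HAS2 was BACE2 (0.970, rho 0.985), most like HAS3 was CDH1, the gene of E-cadherin (0.996, rho 0.907), and most like HAPLN1 was CD109 (0.995, rho 0.958). By r, CEMIP was nearest to CDH13 (0.999), SNAI2 (0.998) and NT5E (0.997), which were at 29.2 to 57.02 FPKM in iMGCs and below 1 FPKM in all other libraries. By rho these were in places 85, 119 and 155 for CEMIP, CDH1 was in place 330 for HAS3 and CD109 in place 12 for HAPLN1, so these neighbours depend on the measure too. Between the genes described here, r was 0.91 for the neighbours VCAN and HAPLN1, 0.95 for HAPLN1 and CEMIP and 0.20 for CD44 and HAS2.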

How the data were processed

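Poly(A) RNA was sequenced from 15 libraries, 3 per group. The authors used HISAT2 for mapping, StringTie for assembly and RSEM for quantification; versions, genome build and annotation are not given in the sources used here, nor is whether counting used strand. The authors deposited RSEM expected counts and FPKM in tables of 19684 genes. FPKM is scaled for transcript length and library total, and expected counts are not scaled in this way. Their columns of fold changes, p-values and false discovery rates hold their own comparisons and were not used. In 1 table, 6 iMGC columns name no passage and were not used either. All identifiers were found in GENCODE 29, which gave positions on GRCh38. Genes on the opposite strand overlap CD44 (CD44-AS1), VCAN (VCAN-AS1), HAS2 (HAS2-AS1), HAS3 (CHTF8) and CEMIP (MESD). Without strand their reads cannot be told apart. TUSC2 overlaps HYAL2 on the same strand, so strand would not separate those reads.

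Between 8.21% and 10.1% of the expected counts were not whole, and they were rounded. edgeR 4.0.16 (R 4.3.3) with TMM factors and the quasi-likelihood test compared 2 groups at a time, two-sided, with no covariate, where 3 or more libraries reached 1 FPKM. The limits for DEGs were 2-fold and 0.05 for the Benjamini-Hochberg adjusted p. The test was tested on simulated data first. Where a group had 0 counts, folds were taken against 3 counts summed over its libraries, and limits cover counting error only. Alternatives were no filter, upper-quartile scaling, DESeq2 1.42.0, limma 3.58.1 on log2(FPKM + 1), all 15 libraries in 1 fit, the replicate number as a block, leaving out each library, and Spearman's rho.

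The 10 genes, the pathway and marker lists and the tests were chosen with earlier results of these data known. The genes named were all 10, the list genes called with the largest changes (up to 4 per list and comparison), the paralogues of the 10, and the genes nearest in pattern; other list genes were named after their values were seen. The result of 1 list gene is not reported here. The sources name 1 company in the methods and a further company with a correction between batches in the description of the data set. They do not say which libraries this concerns, or whether the counts or FPKM used here were corrected. Batch therefore could not enter a fit, and a batch running along the stages cannot be told apart from stage.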

Additional observations from a re-analysis of the deposited data

How the results depend on the processing

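The number of genes called, 5639, 4276, 5686 and 332 in the order of the stages, stayed within 1.5 times under the alternatives tried, except from P1 to P5, where 694 were called with no filter and 152 by limma on log2(FPKM + 1). With a library left out they ranged from 5516 to 5806, 3978 to 4524, 5663 to 5758 and 327 to 346. From D150-ROs to P1 iMGCs 20 pathway genes were called by limma, against 31. From P1 to P5, where 2 were called, 1 to 2 were called with a library left out. HYAL3 turned to −0.15 by limma from D150-ROs to P1 iMGCs. Of 300 alternative values for the 10 genes, 26 moved by more than the spread between replicates and none of those past the limits changed sign, and CD44, not past the limits, turned to −0.26 as given above. Other list genes lost a call in 21 of 840 alternatives and gained one in 3. On log2(FPKM + 1), 63.3% of calls from D70-ROs to D150-ROs were higher, against 49.8%, and the median over genes was 0.19. HAPLN3 from D70-ROs to D150-ROs (1.28 ± 0.48) lost its call in 4 of the 6 fits that left a library out. Depth limits HAS1, TNFAIP6 and, in iMGCs, HYAL1.

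No consistent pairing of the libraries by replicate number was seen. Correlations of equally numbered deviations ran from −0.0587 to 0.347 and not all passed 0.1 in any comparison. With 3 libraries per group they cannot show whether equally numbered libraries share an origin. With the replicate number as a block 5662, 4317, 5691 and 333 genes were called, and 26, 15, 31 and 2 pathway genes, as many as without it.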
